A study of Rattus norvegicus with 30 samples.

Results

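Livers taken 48 h after removal of 70% of the organ (partial hepatectomy) were compared with livers taken 24 h after the same operation, on 6 of the 30 arrays of the series. Each time had 3 arrays, given by the labels as biological replicates, and they were chosen by the time and operation in those labels. All animals of the series were male rats of the Wistar strain. Total RNA that included the small RNA fraction was measured on a 1-colour febit chip, on which a captured miRNA primes an enzymatic extension with labelled nucleotides. Both groups had been operated on, so neither is an unoperated liver, and no 0 h array was used. The labels used here do not state the ages of the rats. The control for surgery was sham laparotomy, with 3 arrays at 24 h and 3 at 48 h. After hepatectomy 388 rat miRNA names were measured, 58 of them star strands, the passenger strand of a precursor in older naming.

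miRNAs are short RNAs that hold a protein complex on matching sites of mRNAs, mainly through the seed, bases 2 to 8 from the 5′ end, and lower the output of those mRNAs. After partial hepatectomy the remaining lobes grow back as hepatocytes leave rest and copy their DNA, which in the rat is known to peak at about 24 h, and other liver cells divide later. By 48 h many hepatocytes have passed through that first wave. Several miRNAs are known as brakes on this cycle (let-7, miR-26, the miR-15/16 and miR-34 families) and others as promoters of growth (miR-21, miR-221, miR-222, the miR-17 clusters). The roles named below are background, known mainly from mouse and human cells.

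No miRNA passed the test between 48 h and 24 h. With limma's moderated test, 0 of 388 names (0%) had an adjusted p under 0.05, and the smallest adjusted p was 0.630. Without adjustment 14 names (3.61%) had p under 0.05, 9 of them higher at 48 h (2.32%) and 5 lower (1.29%). The 3 arrays of one time did not overlap the 3 of the other for 34 names (8.76%), 14 higher (3.61%) and 20 lower (5.15%). Differences between the 2 times, as log2 of 48 h over 24 h, ran from -0.62 for miR-153 to 0.98 for miR-26a, with a median of -0.02 and a median size of 0.15. They were positive for 179 names (46.1%) and negative for 209 (53.9%).

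The number of arrays limited the precision, with a median standard error (SE) of 0.193 on the scale of this fit. The median SE varied with the scale. Over 323 names it was 0.614 in the authors' background-subtracted values and 0.589 in their processed values. Without background correction it was 0.068. The bound given next applies only to the scale of this fit, and larger changes on the authors' scales are not excluded by it. For 365 of the 388 names (94.1%) the 95% confidence interval of the difference lay inside a change of 1 log2 unit in either direction. The intervals of the other 23 reached past that limit, some through a large SE and some through a large difference. They included the hepatocyte miRNAs miR-122, miR-192 and miR-194, and also miR-153, with a difference of -0.62 and an SE of 0.195. For 17 of the 23 the interval reached a rise of more than 1, and for 6 a fall of more than 1.

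The sequences of some of the miRNAs described below, with seed relatives, are shown so that members that share a seed can be set beside each other. They are the mature rat sequences of RefSeq (assembly GRCr8), with the seed in capitals, and not the probes of the chip. Older names without an arm were matched to the arm known as the guide strand. RefSeq matched 152 of the 388 names in all.
miR-26a: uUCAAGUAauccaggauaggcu
miR-26b: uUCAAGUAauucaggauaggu
let-7d: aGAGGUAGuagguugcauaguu
let-7a: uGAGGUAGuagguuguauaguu
let-7f: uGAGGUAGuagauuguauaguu
miR-27b: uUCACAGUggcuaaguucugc
miR-27a: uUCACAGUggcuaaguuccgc
miR-17-5p: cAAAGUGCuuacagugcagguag
miR-106b: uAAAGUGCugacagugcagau
miR-34a: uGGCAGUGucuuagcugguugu
miR-449a: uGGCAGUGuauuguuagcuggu
miR-153: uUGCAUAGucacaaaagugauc
miR-298: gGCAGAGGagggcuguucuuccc
miR-148b-3p: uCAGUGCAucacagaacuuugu
miR-152: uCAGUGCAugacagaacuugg
miR-32: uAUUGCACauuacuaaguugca
miR-92a: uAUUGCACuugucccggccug

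Relatives with the same seed had unequal differences in some cases and similar ones in others, and they were not tested against each other. let-7d differs from let-7a at 2 of 22 positions, both outside the seed, and their differences were 0.71 and 0.11. miR-27b differs from miR-27a at 1 of 21 positions, and these stood at 0.62 and 0.10. miR-26a and miR-26b differ at 2 of the 21 positions compared, with differences of 0.98 and 0.07. Closer to each other were miR-17-5p and miR-106b at 0.37 and 0.30, miR-34a and miR-449a at 0.36 and 0.49, and let-7a and let-7f at 0.11 and -0.01. The dim pair miR-135a and miR-135b, whose sequences are not shown, stood at 0.74 and 0.55. The labels and files used here do not say whether the probes separate such near-identical relatives. In the RefSeq table, miR-26a lies on chromosome 8 at 127633063 to 127633084, plus strand, within the span of Ctdspl. miR-153 lies on chromosome 6 at 144306646 to 144306667, plus strand, within Ptprn2. miR-148b-3p lies on chromosome 7 at 136299930 to 136299951, plus strand, within Copz1. let-7d lies on chromosome 17 at 16322273 to 16322294, plus strand, less than 10 kb from a let-7a and a let-7f copy.

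miR-26a, which represses cyclins needed for entry into DNA synthesis and is abundant in normal liver, had the largest difference. Its level, the mean log2 of normalized intensity over 15 spots, was 9.94, 9.41 and 8.70 on the 3 arrays at 24 h and 10.10, 10.26 and 10.63 at 48 h. All 3 later arrays stood above all 3 earlier ones, although the nearest pair lay close together and the 24 h arrays were spread widely. The difference was 0.98 (SE 0.28, 95% interval 0.39 to 1.58, n = 3 and 3), with an adjusted p of 0.630 from limma. The 95% intervals given here are those of single names and are not adjusted for the choice among 388 names. In the authors' background-subtracted intensity it ran from 136 to 937 at 24 h and from 616 to 2001 at 48 h, so on that scale the arrays of the 2 times overlapped. Over the time course its mean level went from 11.14 (2 h), 10.98 (6 h) and 10.18 (12 h) to 9.35 at 24 h, and then stood at 10.33 at 48 h and 10.96 at 5 d. The 24 h mean was the lowest of these 6, as it was for 67 of the 388 names.

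let-7d, of a family that represses RAS and MYC mRNAs, stood at 8.13, 8.07 and 8.04 at 24 h and at 8.73, 8.91 and 8.74 at 48 h. These were tight groups with a clear gap between them. The difference was 0.71 (SE 0.24, 95% interval 0.21 to 1.22), with an adjusted p of 0.636. The moderated test uses the spread at all 6 times after hepatectomy, and let-7d varied more at 2 h, 6 h and 12 h than at 24 h or 48 h, as the plot of means by time shows. In background-subtracted intensity it ran from 200 to 392 at 24 h and from 184 to 536 at 48 h, again with overlap.

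**Figure D1:**
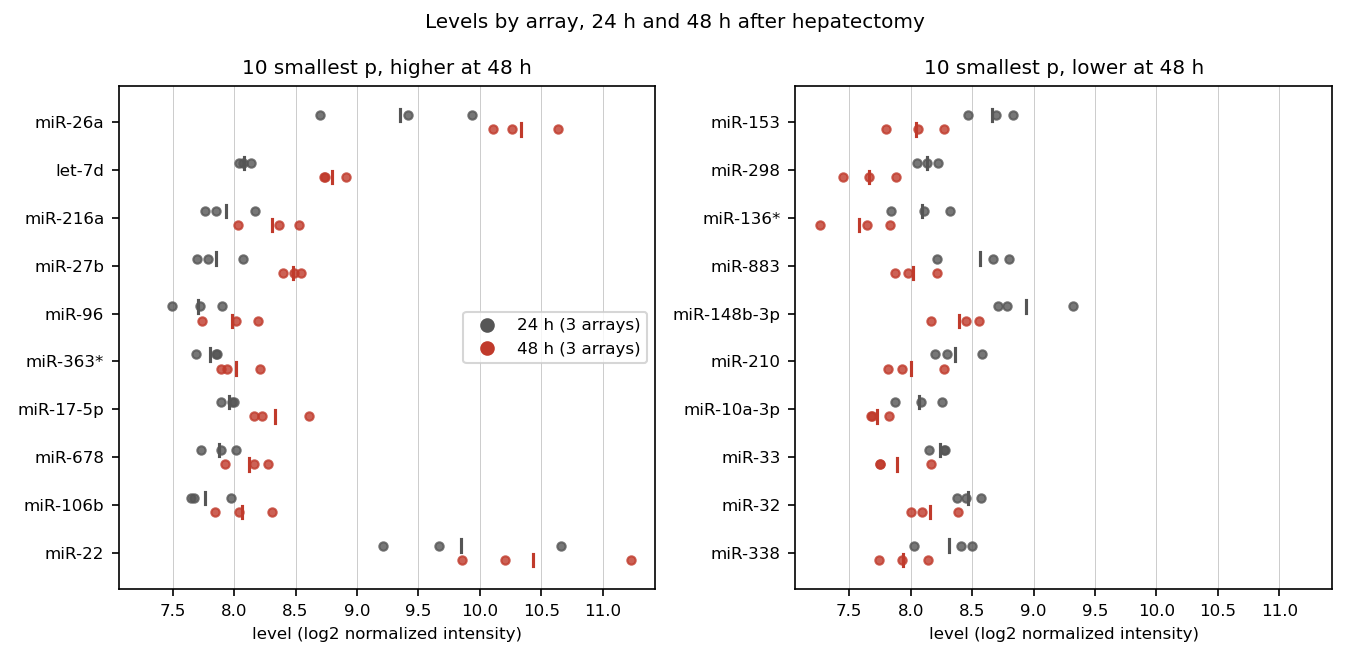
Level on each array (log2 normalized intensity) of the 10 miRNAs with the smallest p in each direction, among names above the median level. Grey points are the 3 arrays at 24 h, red points the 3 at 48 h, and bars the group means. let-7d, miR-27b and miR-153 have separate groups, and miR-22 and miR-96 overlap widely. None passed the adjusted test.

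Of the 10 names above the median level with the smallest p values toward 48 h, miR-26a, let-7d, miR-27b, miR-363* and miR-17-5p had arrays that did not overlap, and the other 5 overlapped. miR-27b, known for its part in lipid metabolism, was at 8.07, 7.79 and 7.70 at 24 h and 8.54, 8.49 and 8.40 at 48 h. Its difference of 0.62 (SE 0.36) had an adjusted p of 0.867. Its levels at 2 h and 6 h varied widely, with SDs of 0.84 and 0.77. miR-17-5p, a growth-promoting member of the miR-17 cluster, was at 7.985, 7.997 and 7.897 at 24 h and 8.161, 8.226 and 8.608 at 48 h, a difference of 0.37 (SE 0.23, adjusted p = 0.867). miR-106b, which has the same seed and lies in the Mcm7 gene in mammals, differed by 0.30, and its arrays overlapped.

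The remaining names toward 48 h have different known roles. miR-22, abundant in liver and heart, was at 10.66, 9.21 and 9.67 at 24 h and 9.85, 10.21 and 11.23 at 48 h. Its difference of 0.59 (SE 0.44) was within the spread of the arrays. With 1 array left out it lay between 0.19 (replicate 3 of 48 h omitted) and 0.998 (replicate 1 of 24 h omitted), and it was 0.27 with replicate 2 of 24 h omitted. In the authors' background-subtracted values it was -0.09. The pancreas-enriched miR-216a differed by 0.38, miR-96 of the sensory miR-183 cluster by 0.28, miR-678 by 0.24 and miR-363*, the passenger strand from an X-linked relative of the miR-17 cluster, by 0.21. All of these had an adjusted p of 0.867.

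Among names lower at 48 h, the smallest p belonged to miR-153, which is best known in neurons. It was at 8.84, 8.69 and 8.47 at 24 h and at 8.27, 7.80 and 8.06 at 48 h. Every array at 48 h lay below every array at 24 h, with a difference of -0.62 (SE 0.20, 95% interval -1.03 to -0.21, adjusted p = 0.630). Its means at 2, 6 and 12 h were 8.01, 8.11 and 8.18 and its mean at 5 d was 8.13, so 24 h was the highest of the 6 times, as for 103 of the 388 names. In background-subtracted intensity it ran from 264 to 536 at 24 h and from 48 to 352 at 48 h.

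miR-298, which represses the protease mRNA Bace1 in mouse, was at 8.22, 8.13 and 8.05 at 24 h and 7.45, 7.88 and 7.66 at 48 h. The groups did not overlap, and the difference was -0.47 (SE 0.15, adjusted p = 0.630). Its background-subtracted intensity at 48 h, from -16 to 120, reached the background on an array. miR-148b-3p, which represses DNA methyltransferase and LDL receptor mRNAs and was listed here as a hepatocyte miRNA, was at 9.32, 8.78 and 8.71 at 24 h and 8.45, 8.17 and 8.56 at 48 h. These groups lay close without overlap, with a difference of -0.55 (SE 0.22, adjusted p = 0.867). Its seed relative miR-152 differed by -0.20.

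miR-883 was at 8.67, 8.80 and 8.21 at 24 h and 7.98, 7.87 and 8.22 at 48 h, so a single array at each time met. Its difference was -0.54 (SE 0.21, adjusted p = 0.863). miR-136*, from the imprinted Rtl1 locus, was lower on all 3 arrays at 48 h with a difference of -0.51 and the same adjusted p. The hypoxia-induced miR-210 differed by -0.36. miR-33, which lies within Srebf2 and represses cholesterol export, differed by -0.35. miR-338, within the Aatk gene, differed by -0.37, miR-10a-3p by -0.34 and miR-32, within Tmem245, by -0.31, all with an adjusted p of 0.867. miR-92a, which has the seed of miR-32, differed by 0.08.

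Low signal bears on several of these. Of the 10 names toward 24 h, 9 were in the authors' background-subtracted table, and the lowest array at 48 h was at or below 0 for 3 of them and under 10 for 5. Of 323 names in that table, 302 (93.5%) were above 0 on all 3 arrays at 24 h and 213 (65.9%) at 48 h. Only 35 of the 323 were above 100 on all 6 arrays, among them miR-26a, let-7d, miR-27b, miR-22 and miR-148b-3p. The constant that the authors had subtracted from each array was 840 to 960 at 24 h and 456 to 1144 at 48 h, and its part in these shares was not tested.

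**Figure D2:**
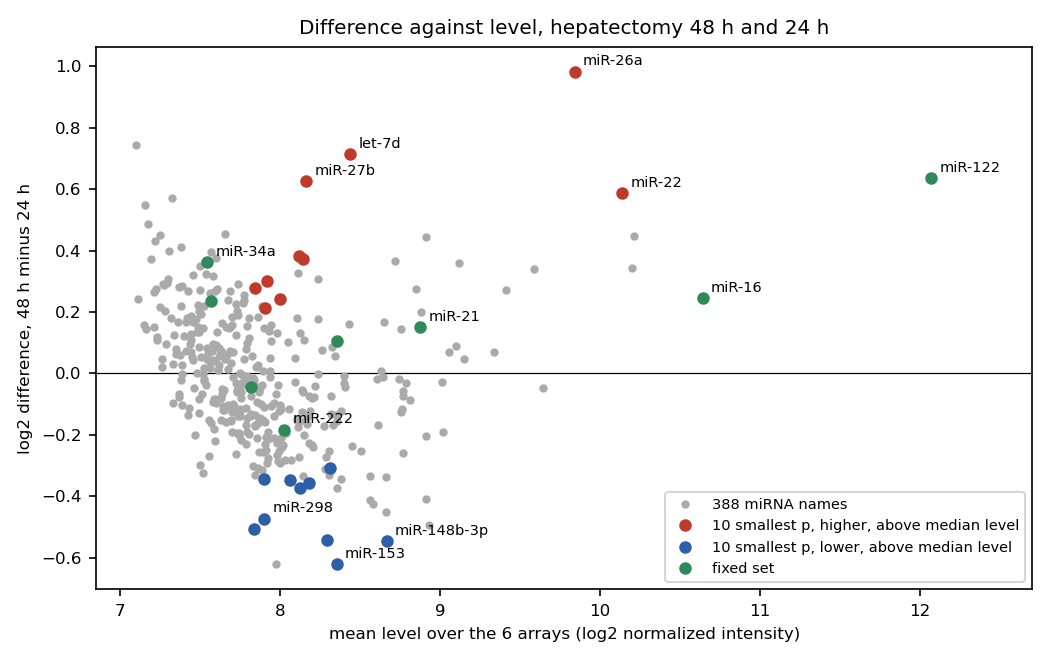
Difference between 48 h and 24 h (log2, vertical) against the mean level over the 6 arrays (log2 normalized intensity, horizontal) for 388 names. Red and blue mark the 10 smallest p in each direction among names above the median level, and green the fixed set. Names at low level lie mostly above 0 and names of middle level mostly below it.

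The sign of the difference varied with the level. Among the 194 names above the median level, 59 differences were positive and 135 negative, with a median of -0.11. Among the 194 at or below it, 120 were positive and 74 negative, with a median of 0.06. The 35 names above an intensity of 100 on all 6 arrays had a median of 0.15. Fewer names stood above 0 on all arrays at 48 h than at 24 h. The choice of these 35 can therefore favour names higher at 48 h, and no lean of bright names is read from it. Of the 9 unadjusted p values toward 48 h, 7 belonged to names at or below the median level. The other 2, miR-26a and let-7d, lay above it. The names toward 24 h were all above the median level. miR-135a, chosen after its values were seen, shows the dim case: its difference was 0.74 (SE 0.26, adjusted p = 0.636), and its background-subtracted intensity was -24 to 0 at 24 h and 24 to 64 at 48 h. miR-675, also chosen so, differed by 0.46 (SE 0.14, adjusted p = 0.630), with intensities of 56 to 208 and 0 to 168.

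The fixed set of miRNAs known from growing liver showed no call either. miR-122, the most abundant miRNA of hepatocytes, was at 13.091, 12.182 and 9.982 at 24 h and 11.936, 12.220 and 13.003 at 48 h. A single array, replicate 3 at 24 h, stood far below the other 5. The difference was 0.63 (SE 0.57, 95% interval -0.58 to 1.85, adjusted p = 0.868), and without that array it was -0.25. miR-21, which is known to rise in regenerating liver, was at 9.417, 8.750 and 8.233 at 24 h and 8.282, 9.566 and 9.003 at 48 h. These arrays overlapped throughout, with a difference of 0.15 (95% interval -0.80 to 1.10, adjusted p = 0.946), an interval that holds a rise and a fall alike.

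The neighbours miR-221 and miR-222, which repress the cycle inhibitor Cdkn1b, had narrower intervals on the scale of this fit. miR-221 differed by -0.04 (95% interval -0.37 to 0.28) and miR-222 by -0.18 (95% interval -0.62 to 0.26). The mean levels of miR-221, 7.84 at 24 h and 7.79 at 48 h, lay near the median level of 7.79. Over 22 alternatives of processing miR-221 ran from -0.13 to 0.07, with the other sign in 7. miR-222 ran from -0.67 to 0.23, with the other sign in 2. miR-16, a repressor of cyclins, differed by 0.25 (SE 0.45). With 1 array left out its difference lay between -0.29 and 0.69, and it was -0.19 without replicate 3 at 24 h. let-7a differed by 0.11 and the myeloid miR-223 by 0.23 (adjusted p = 0.868). miR-34a, a target of p53 that represses cyclins and Met, was low on every array but separate, at 7.33, 7.41 and 7.35 at 24 h and 7.75, 7.73 and 7.69 at 48 h. Its difference was 0.36 (SE 0.14, unadjusted p = 0.0200, adjusted p = 0.863), and in background-subtracted intensity, 0 to 176 at 24 h and -8 to 120 at 48 h, the times overlapped.

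**Figure D3:**
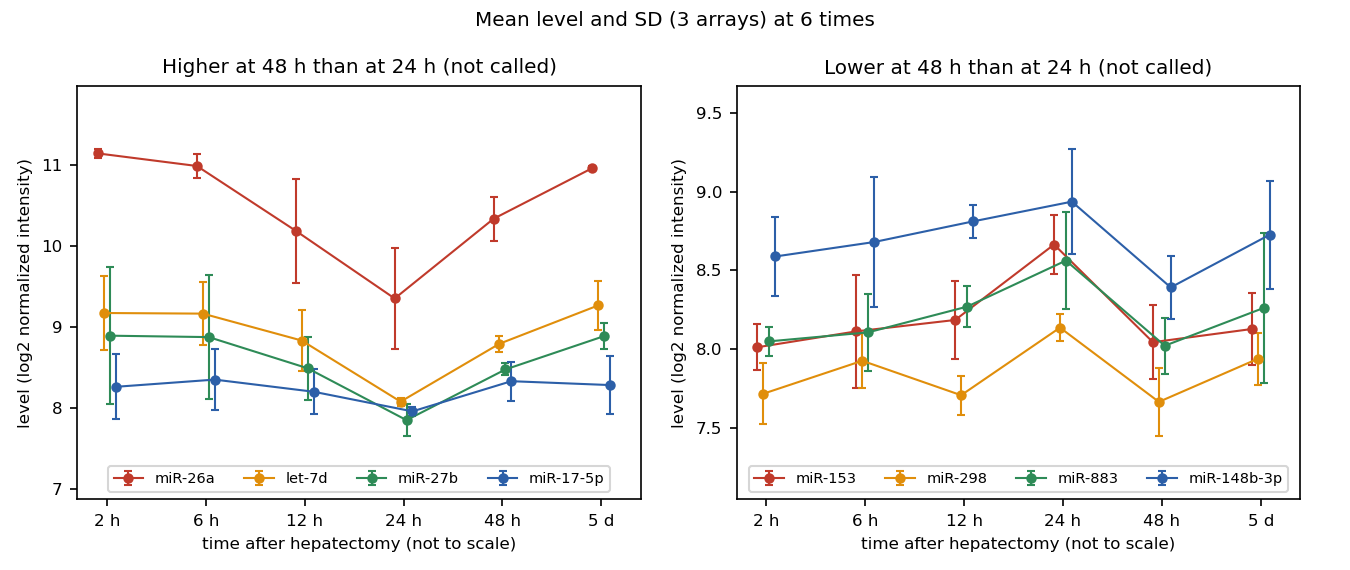
Mean level (log2 normalized intensity) with SD over 3 arrays at 6 times after hepatectomy, spaced evenly. On the left are 4 miRNAs with higher means at 48 h than at 24 h, on the right 4 with lower ones. The 24 h mean is the lowest of the 6 for miR-26a, let-7d, miR-27b and miR-17-5p, and the highest for miR-153, miR-298, miR-883 and miR-148b-3p. These names were chosen from the smallest p values between 48 h and 24 h in the same arrays, a choice that favours an extreme 24 h mean. Over all 388 names the 24 h mean was the lowest for 67 and the highest for 103.

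By family, none of the lists had a member past the test, so each is described by its differences beside the median of -0.02 and the 46.1% of positive differences over all names. Of the families known as brakes on the cycle, let-7 had 7 of 8 members positive, with a median of 0.25. let-7d was the member with an unadjusted p under 0.05, let-7c stood at 0.33, let-7i at 0.31 and miR-98 at 0.29. Of its 8 members 4 lay at or below the median level, where 61.9% of all names were positive, against 30.4% above it. The family of miR-34 and miR-449 had 4 of 4 positive with a median of 0.22, and all 4 members lay at or below the median level. Of these, miR-449a, with a seed shared with miR-34a, stood at 0.49 (adjusted p = 0.867). The miR-15/16 seed list was divided, with 2 of 5 measured members positive, from -0.49 for miR-497 to 0.25 for miR-16. The miR-29 family, which represses collagen mRNAs, had 1 of 3 positive, and the miR-30 family 4 of 5 with a median of 0.17.

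Among lists tied to growth and metabolism, the miR-23/27/24 list had 5 of 5 positive with a median of 0.15, and all 5 lay above the median level. Of these, miR-27b, miR-23b, miR-23a and miR-24 were among the 35 names above an intensity of 100 on all 6 arrays. Those 35 names, chosen partly by their intensity at 48 h, had a median of 0.15 as well. miR-27b and miR-23b, at 0.62 and 0.36, are neighbours in 1 cluster, and miR-24 beside them stood at 0.07. The miR-17-92 clusters and relatives had 7 of 10 positive, with a median of 0.02. The list of miR-21, miR-221 and miR-222 had 1 of 3 positive. The miR-181 family had 1 of 4, and the metabolic pair of miR-103 and miR-107 0 of 2. miR-125b-5p stood at 0.37 and miR-125a-5p at -0.11, and of the miR-99/100 list 2 of 3 were positive with a median of 0.05. Of 58 star strands 23 were positive, with a median of -0.04.

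**Figure D4:**
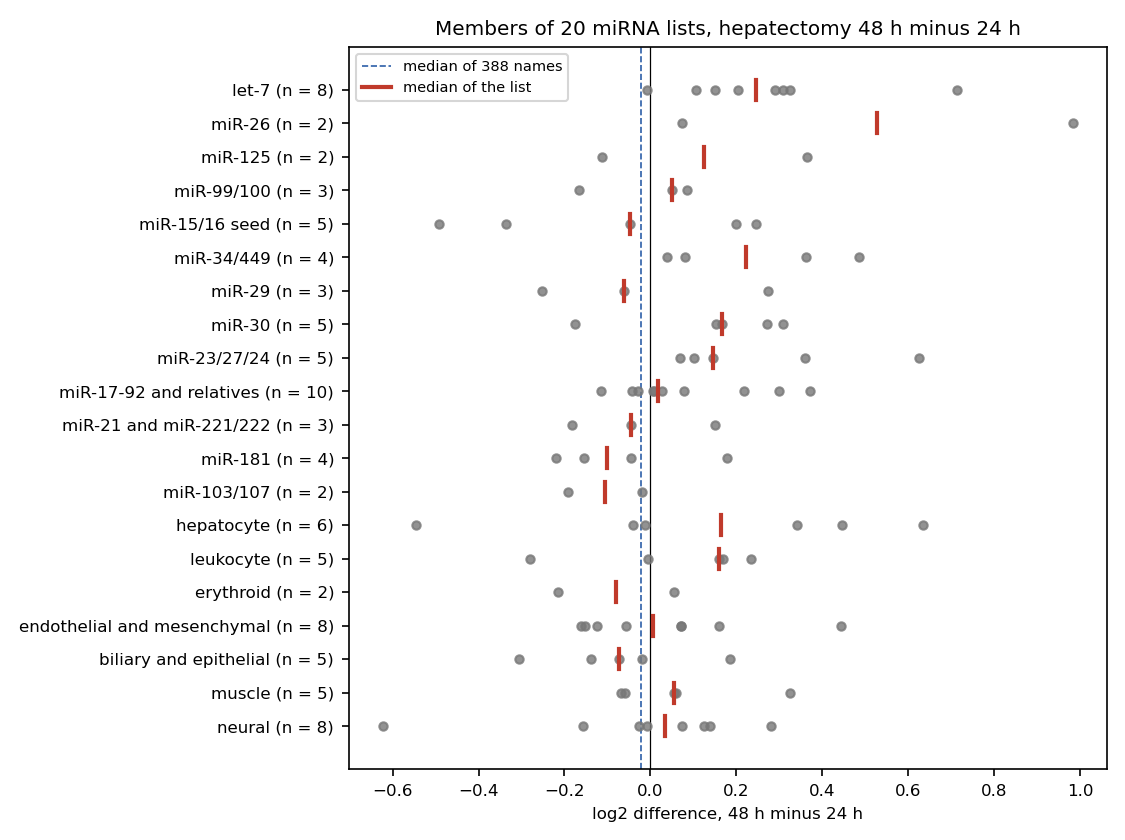
Differences between 48 h and 24 h (log2) of the members of 20 miRNA lists. Each grey point is a miRNA, the red bar the median of the list and the dashed line the median of 388 names. The let-7, miR-34 with miR-449 and miR-23/27/24 points lie almost wholly at or above 0, and most other lists spread to both sides.

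Lists of cell type markers were measured because whole liver holds several cell types. In such bulk tissue, fewer cells of a type and less RNA per cell cannot be told apart. The 6 hepatocyte markers had 3 positive differences and a median of 0.16, with miR-122 at 0.63, miR-194 at 0.45 and miR-192 at 0.34. The 3 negative ones were miR-148b-3p at -0.55, miR-101a at -0.04 and miR-802 at -0.01. The summed background-subtracted intensity of the 6 was 2632.5 to 15637 over the arrays at 24 h and 7971 to 12676.5 at 48 h. The leukocyte list, 5 of 6 measured, had 3 positive and a median of 0.16. Of these 5, 4 lay at or below the median level, where 61.9% of all names were positive. miR-142-5p stood at -0.28, with its 3 arrays at 48 h below its 3 at 24 h. The sums of the list were 568 to 1016 at 24 h and 264 to 528 at 48 h, opposite in direction to its median. The muscle and neural lists below likewise had lower ranges of sums at 48 h and positive medians. Sums of this kind were not normalized between arrays. Of its members, miR-142-3p was at 0 on 1 array at 48 h. The endothelial and mesenchymal list of 8 had 4 positive and 4 negative differences, with a median of 0.01. They ran from -0.16 for miR-10a-5p to 0.44 for miR-126. The sums, over 7 of the 8, were 1240 to 3193 at 24 h and 744 to 3001.5 at 48 h. The erythroid pair had a median of -0.08 (sums 192 to 592 and 64 to 288) and the 5 biliary and epithelial markers one of -0.07 (776 to 1352 and 132 to 888). The median was 0.05 for the 5 muscle markers (412 to 856 and 96 to 520) and 0.03 for the 8 neural markers (752 to 2312 and 304 to 1376). All 5 muscle markers and 5 of the 8 neural markers lay at or below the median level. All 6 hepatocyte markers were above 0 on all 6 arrays. The part of cell makeup in the differences was not tested.

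Array-wide signal was set beside these results. The median raw intensity was 1240, 984 and 1024 at 24 h and 1328, 976 and 576 at 48 h, so replicate 3 at 48 h had the lowest background. An exact permutation test of 3 against 3 arrays, two-sided, gave p = 0.7 for this median, 0.8 for the 75th percentile and 0.6 for signal span (95th percentile minus median of log2 signal), where 0.1 is the smallest p possible. The mean span of the 24 h arrays was 1.11 ± 0.51 (SD, n = 3), and that of the 48 h arrays was 1.23 ± 0.25. Replicate 2 at 48 h stood apart from the other 5 arrays, with correlations across names of 0.614 to 0.737. With it left out 0 names passed, as for each of the other 5 arrays left out. Among arrays of high background, 3 at 24 h against 2 at 48 h, 0 names passed and the differences were 0.79 for miR-26a, 0.70 for let-7d and -0.63 for miR-153. The arrays of low background held 1 array at 48 h and none at 24 h, so they gave no value.

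Sham laparotomy gave the same interval without loss of liver. The sham arrays had another chip layout, with 22 spots per name against 15. A constant offset between layouts cancels in a difference of changes, but whether layout altered the size or spread of changes was not tested. In a fit of hepatectomy and sham arrays together, over 376 shared names, 0 names (0%) passed between 48 h and 24 h after sham with limma, and 1 (0.266%) had an unadjusted p under 0.05. The smallest sham p values belonged to miR-196b (0.27), miR-376a* (0.29), miR-764 (-0.26), miR-347 (0.22) and miR-181c (0.26), all with an adjusted p of 1. The change between the times differed between hepatectomy and sham for 0 of 376 names after adjustment, with a smallest adjusted p of 0.944, and for 15 (3.99%) without it. The 5 smallest p values of this difference were those of miR-148b-3p (-0.91), miR-153 (-0.75), miR-34a (0.55), let-7i* (-0.90) and let-7d (0.999). A median SE of 0.239 for this difference set its precision.

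The change after hepatectomy was also read from this joint fit, a choice made after seeing the data, and there 5 of 376 names (1.33%) passed and 31 (8.24%) had an unadjusted p under 0.05. let-7d (1.13, adjusted p = 0.0242) and miR-26a (0.83, adjusted p = 0.0242) rose, and miR-148b-3p (-0.93, adjusted p = 0.0218), let-7i* (-1.01, adjusted p = 0.0242) and miR-153 (-0.73, adjusted p = 0.0328) fell, by limma. The sham changes of these 5 were 0.13, 0.28, -0.02, -0.11 and 0.02, none past the test. miR-148b-3p on that scale was at 9.04, 9.15 and 9.67 at 24 h and 8.56, 8.22 and 8.29 at 48 h after hepatectomy, and at 8.29, 8.11 and 8.27 and then 8.21, 8.26 and 8.14 after sham. The hepatectomy arrays at 24 h thus lay above all others of the 12, although level across operations also crosses the chip layout and the 2 cannot be told apart. This fit averages spots before normalization and adds the sham arrays to the estimate of the spread, and their median SD was 0.130 at 24 h and 0.135 at 48 h against 0.143 and 0.238 after hepatectomy. With the hepatectomy arrays alone normalized in that order, 0 names passed. miR-122 was the brightest name on every array of the joint fit, so quantile normalization gave it 1 value throughout and its change cannot be read there.

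**Figure D5:**
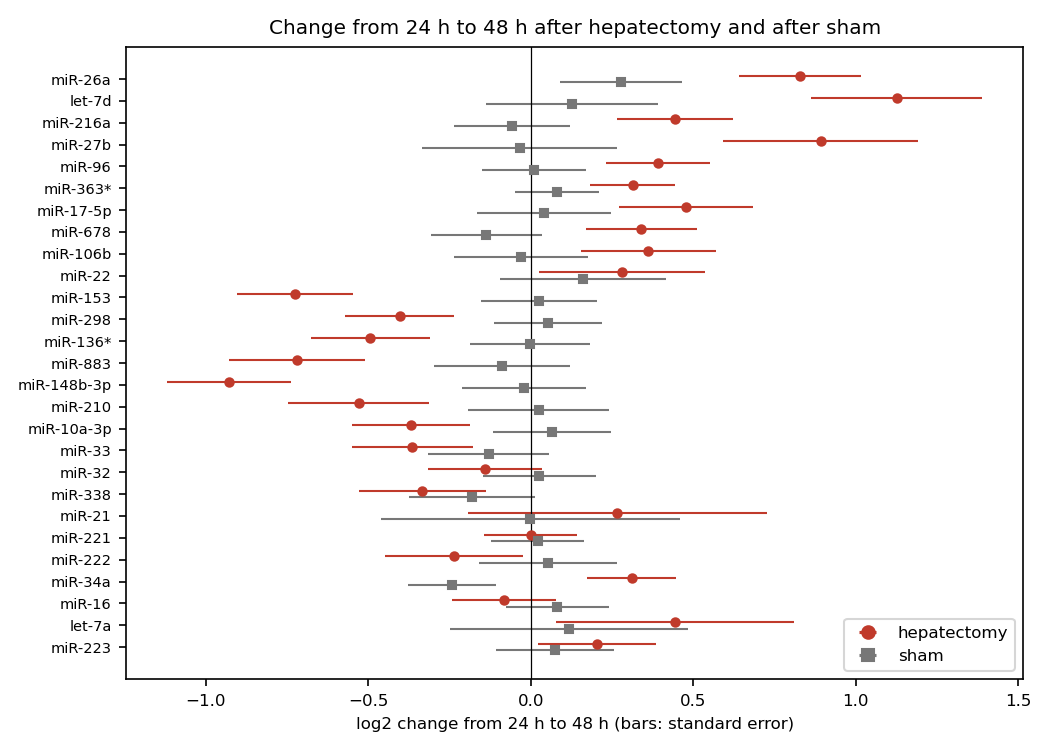
Change from 24 h to 48 h (log2) after hepatectomy (red circles) and after sham (grey squares) in the joint fit, with standard errors. The sham changes lie near 0, from -0.24 for miR-34a to 0.28 for miR-26a among the names shown. Among the names shown, the hepatectomy changes reach 1.13 for let-7d and -0.93 for miR-148b-3p. No difference between the operations passed the test.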

How the data were processed

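Raw spot intensity, on a linear scale, was deposited by the authors for every array. The authors also deposited a background-subtracted median intensity per miRNA and a processed log2 value, both without star strands and used here as alternatives. The labels and files used here name no image software or genome build. The letters of 4 arrays were exchanged within their groups between the raw and the other tables (replicates 1 and 3 at 48 h among them), and replicate numbers follow the raw table.

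The 18 hepatectomy arrays from 2 h to 5 d were background-corrected (normexp, offset 50), log2 transformed, quantile normalized, averaged over 15 spots per name (0.585% of spots missing) and fitted with limma 3.58.1 in R 4.3.3, with 12 residual degrees of freedom. Two-sided tests were used, with Benjamini-Hochberg adjustment over all names and a threshold of 0.05. The joint fit with sham (22 spots per name) averaged spots first, over 27 arrays and 376 names. The limma fit of the hepatectomy arrays was tried on simulated normalized values, which did not cover the steps before it or the joint fit.

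Names given are the 10 smallest p in each direction above the median level, a fixed set, the 5 smallest p of the sham tests and members of 20 lists. Members and lists were chosen with earlier results of these data known. Whether arrays of a group come from separate animals rests on the label of biological replicate.

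Arrays with the same number in the raw data did not consistently deviate together at the 2 times (correlations -0.18, 0.33 and -0.50), so numbers were not taken as pairs. A pairing by the exchanged letters at 48 h was not tested.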

Additional observations from a re-analysis of the deposited data

How the results depend on the processing

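Of 22 alternatives, 20 were planned and 2 were added after seeing the data. In 20 of them 0 names passed in either direction, as in the reported fit. With signal span as a covariate 1 name was called higher (miR-135a, 0.81) and 1 lower (miR-148b-3p, -0.61), both with an adjusted p of 0.0324 from limma. In the added fit with the sham arrays 2 were called higher and 3 lower. The cause of the calls was not tested. Leaving out each array in turn gave from 0 to 0 names in each direction, and the smallest adjusted p then ran from 0.122 to 0.937. The replicate block gave 0 calls in both directions (10 higher and 5 lower without adjustment). The numbers of names that changed after sham, or differed between operations, were 0 under all of their alternatives.

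The difference of miR-26a was positive in all 22 alternatives (0.51 to 1.86), as was that of let-7d (0.32 to 1.13), and those of miR-153 (-1.05 to -0.23) and miR-148b-3p (-0.93 to -0.26) were negative in all. Sizes depended on the processing. miR-298 ran from -1.53 to -0.18, miR-33 from -1.52 to -0.13 and miR-34a from 0.12 to 1.27 over their alternatives. Over 29 named miRNAs, 27 of 630 values took the other sign, none of them called, with miR-21, miR-122, miR-16 and miR-221 among them. The median of all names moved from -0.11 (median centring) to 0.09 (no normalization). The medians of let-7, miR-26, miR-34 with miR-449, miR-30 and miR-23/27/24 kept their sign throughout, that of let-7 at 0.07 to 0.78. Other medians took the other sign, in 12 of 22 alternatives for the endothelial and mesenchymal list and in 6 each for miR-99/100, miR-15/16 and the list of miR-21, miR-221 and miR-222. The biliary median of -0.07 was -0.71 in the authors' processed values. Low signal limited names near background, since 35 of 323 stood above an intensity of 100 on all 6 arrays.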
